A study of Mus musculus with 2 samples.

Results

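The 10 genes described here handle ATP and adenosine at and below the surface of mouse regulatory T cells: Entpd1, Nt5e, Ada, Adk, Adora2a, Adora2b, Slc29a1, P2rx7, P2rx4 and Dpp4. They were chosen by name as ectonucleotidase, adenosine and purine receptor genes and were matched by gene identifier, 10 of the 55536 annotated genes in the tables. The cells were primary regulatory T cells of 1 adult male mouse, 4 months old, of the strain Foxp3CreERT2 x Rosa26YFP. In such a strain a tamoxifen-dependent Cre recombinase is made from the Foxp3 allele, and the Rosa26 allele carries a YFP reporter. The labels trace the cells to a haematopoietic cell of the bone marrow and name no sort, gate or treatment. PolyA plus RNA of this 1 animal was sequenced as 2 technical libraries, so the data give levels in these cells and hold no comparison between conditions. Every SD below is technical, with n = 2.

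Cells release ATP when they are stressed or damaged, and outside the cell it acts on the P2X channels and P2Y receptors of neighbouring cells. CD39, the product of Entpd1, removes phosphates from ATP and ADP to leave AMP, and CD73, the product of Nt5e, turns AMP into adenosine. Regulatory T cells are known to carry both enzymes, and adenosine made at their surface can dampen effector T cells through the receptor encoded by Adora2a. Adenosine is then removed by uptake through equilibrative transporters and by the enzymes adenosine kinase and adenosine deaminase.

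The libraries held 15821875 and 16153671 estimated counts on annotated genes. The 6 T cell and regulatory T cell markers looked at (Cd3e, Cd4, Foxp3, Il2ra, Ikzf2 and Ctla4) were all expressed, here meaning at 1 TPM (a level scaled for transcript length and library depth) or more in both libraries, and summed to 2206 and 2213 TPM. Of 7 macrophage, monocyte and granulocyte markers none was expressed, and they summed to 2.08 and 2.23 TPM. Of 5 B cell markers Cd79b alone was expressed, at 33.2 and 33.3 TPM. Of 5 dendritic cell markers 1 was expressed, and they summed to 3.22 and 4.33 TPM with Itgax at 0. Of 4 CD8 T and NK cell markers 2 were expressed, with sums of 4.47 and 4.07 TPM. Of 4 red cell markers 2 were expressed, with sums of 10.7 and 8.78 TPM. The highest mean level of a marker was 2.94 TPM in the dendritic cell list, 2 TPM in the CD8 T and NK cell list and 7.325 TPM in the red cell list. Platelet markers summed to 0.44 and 0.27 TPM with Pf4, Ppbp and Gp9 at 0, and endothelium and stroma markers to 0.27 and 0.15 TPM with Pdgfrb at 0.

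Of the 10 genes 9 were expressed, against 24.3% of all annotated genes and 46.5% of protein-coding genes, and Adora2b had no count. The median over the 10 genes was 45.7 TPM, and that over all expressed protein-coding genes was 18.5 TPM. The genes were chosen by name with earlier results of these data known, so these contrasts describe the choice and test nothing. The order of the mean levels was Nt5e, Adk, Dpp4, Slc29a1, P2rx7, Entpd1, P2rx4, Adora2a, Ada and Adora2b. Neighbours in this order never overlapped in their library values, which are only 2 per gene. The authors' credibility intervals are wider and overlapped for Adk and Dpp4, for Dpp4 and Slc29a1, and for P2rx7 and Entpd1, so those places in the order are not separated beyond the error of the estimate. Those intervals belong to the authors' posterior mean estimate of TPM, which differed from the TPM used here by between -10.6% and 3.23% for the expressed members, and a TPM can therefore lie outside its own interval.

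**Figure D1:**
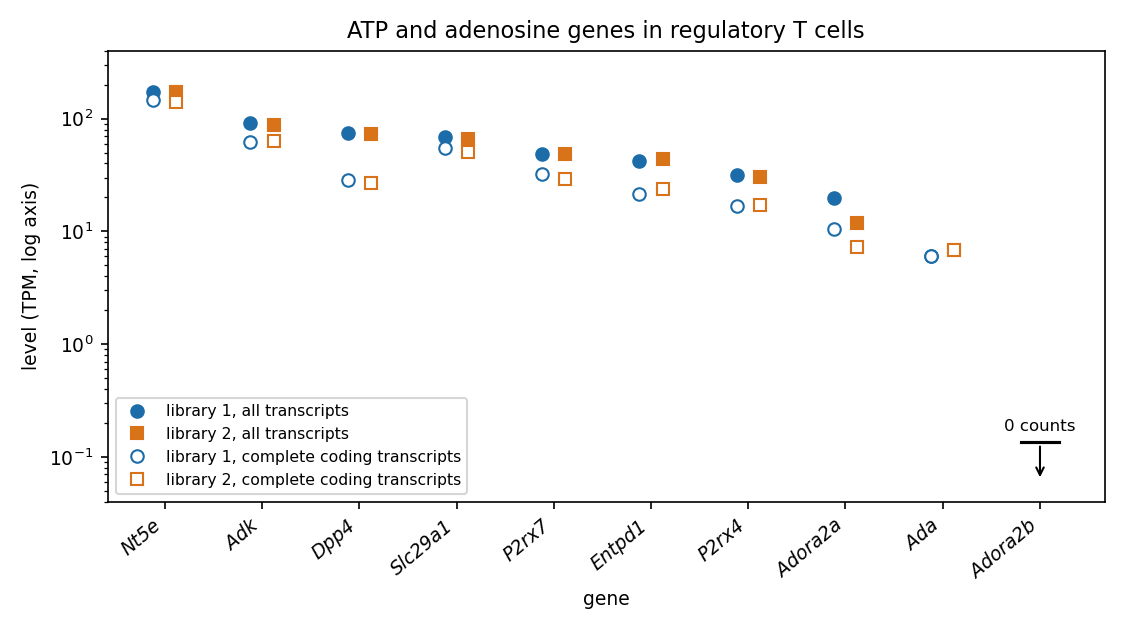
Level in TPM (log axis) of each gene in library 1 (circles) and library 2 (squares), summed over all its transcripts (filled) and over transcripts annotated with a complete coding sequence (open). Nt5e was the highest at 171.64 and 171.54 TPM, and Dpp4 lost the most when its other transcripts were left out. All Ada counts were given to its complete coding transcript, so its symbols coincide. Adora2b is drawn as an arrow below the level that 3 counts would give.

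The enzymes that make adenosine differed in level. Nt5e (ENSMUSG00000032420.8, mm10 chromosome 9, 88327197 to 88372092, plus strand) had 7625 and 7802 estimated counts, a level of 171.64 and 171.54 TPM, or 171.59 ± 0.07 (SD, n = 2). It was the highest of the 10 genes and lay above 94.2% of all expressed genes. Entpd1 (ENSMUSG00000048120.16, chromosome 19, 40612366 to 40741602, plus strand) had 1015 and 1053 estimated counts and 42.26 and 43.75 TPM, 43.01 ± 1.05 (SD, n = 2), above 76.9% of expressed genes. The CD73 transcript level was 4.06 and 3.92 times the CD39 transcript level per length in the 2 libraries. The whole-number counts that the authors deposited with an older annotation (GENCODE M4) gave a ratio of 4.18 and 4.02, and CPM (counts scaled for library depth alone) from the estimated counts gave 7.51 and 7.41; neither of these is per length. Over complete coding transcripts alone, Nt5e had 146.62 and 140.99 TPM and Entpd1 21.45 and 23.63 TPM, a wider gap per length than over all transcripts. Nt5e was above Entpd1 by every measure, but the size of the gap moved with the measure.

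Nearly all Nt5e signal belonged to its full coding transcript. Nt5e-201 took 85.4% and 82.2% of the gene's TPM and 94.3% and 93.0% of its counts. The 280-base noncoding transcript Nt5e-204 had 15.17 and 18.25 TPM from 43.57 and 54.96 counts. Entpd1 was more divided. The transcript Entpd1-204, whose coding sequence of 1617 bases begins in an exon upstream, had 12.39 and 16.87 TPM. The transcript Entpd1-201, the annotated principal form with a coding sequence of 1530 bases, had 9.06 and 6.76 TPM. Of the pair, Entpd1-204 made up 57.8% in library 1 and 71.4% in library 2, above Entpd1-201 in both libraries. The coding starts of these transcripts are shown because they are where the encoded proteins part. Capitals mark the coding bases before the splice junction and lower case the 15 bases after it, which are the same in both.
Entpd1-201: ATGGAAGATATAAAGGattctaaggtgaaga
Entpd1-204: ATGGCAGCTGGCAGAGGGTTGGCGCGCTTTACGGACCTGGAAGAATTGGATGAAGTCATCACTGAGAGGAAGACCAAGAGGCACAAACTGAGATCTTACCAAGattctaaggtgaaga
The capitals lie on chromosome 19 at 40659885 to 40659900 for Entpd1-201 and at 40612421 to 40612523 for Entpd1-204 (mm10, plus strand, GENCODE M21 transcripts). The split rests on few places: 45 of the 2360 windows of 50 bases in Entpd1-204 are found in no other Entpd1 transcript, against 1837 of 4172 in Entpd1-201. By estimated counts Entpd1-201 led in library 1, with 470 against 364, and Entpd1-204 led in library 2, with 519 against 368. A further transcript annotated for nonsense-mediated decay, Entpd1-209, had 7.06 and 6.55 TPM. The 204-base noncoding transcript Entpd1-208 had 8.83 and 10.53 TPM from only 17.0 and 21.3 counts. Processed pseudogene Gm8783 inside Entpd1 had 13.02 and 2.67 counts.

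Inside the cell, the kinase that returns adenosine to AMP was far above the deaminase that turns it into inosine. Adk, adenosine kinase (ENSMUSG00000039197.10, chromosome 14, 21052574 to 21448569, plus strand), had 1799 and 1816 estimated counts and 90.52 and 86.96 TPM, 88.74 ± 2.52 (SD, n = 2), above 88.4% of expressed genes. Ada, adenosine deaminase (ENSMUSG00000017697.3, chromosome 2, 163726584 to 163750239, minus strand), had 123 and 146 counts and 6.04 and 6.83 TPM, 6.44 ± 0.56 (SD, n = 2), above 33.1% of expressed genes. The Adk level was 14.99 and 12.73 times the Ada level. In CPM from the GENCODE M4 counts the ratio was 8.24 and 6.90, so Adk was above Ada in both tables while the size of the gap moved with the table. The M4 tables held 725 and 766 counts for Adk and 88 and 111 for Ada, a smaller part of the M21 counts for Adk than for Ada. The smaller M4 ratio is therefore not an equal second estimate of the gap. All Ada counts were given to Ada-201. Exact Poisson limits (95%) on the Ada counts were 102 to 147 in library 1 and 123 to 172 in library 2; they overlap, and like all such limits here they cover counting error alone.

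Adk has a pair of complete coding forms that differ at their start. In mammals the long form of the kinase is known as nuclear and the short form as cytoplasmic. The transcript of the short form, Adk-207, with a coding sequence of 1035 bases, had 44.51 and 51.32 TPM, and that of the long form, Adk-201, with 1083 coding bases, had 17.78 and 12.56 TPM. Of these complete coding transcripts alone, the short form made up 71.5% and 80.3% of the pair. The starts that tell them apart follow, with the coding bases of each form's own exon in capitals and the first 15 bases they share in lower case.
Adk-201: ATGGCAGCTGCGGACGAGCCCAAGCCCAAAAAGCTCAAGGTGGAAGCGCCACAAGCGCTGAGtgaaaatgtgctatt
Adk-207: ATGACGTCCACCAGtgaaaatgtgctatt
These exons lie on chromosome 14 at 21052639 to 21052700 for Adk-201 and at 21076308 to 21076321 for Adk-207 (mm10, plus strand). The authors' intervals were 32.03 to 46.8 and 37.6 to 54.7 TPM for Adk-207, and 8.54 to 23.5 and 2.65 to 19.7 TPM for Adk-201. The intervals of the forms did not overlap in either library, and those of each form overlapped between libraries. Adk-208, a short transcript with an incomplete coding sequence, had 7.42 and 8.96 TPM from 31.7 and 40.1 counts. The split of the pair rests on few places. Windows found in no other Adk transcript were 44 of 1733 in Adk-201 and 167 of 1769 in Adk-207. Transcripts without a complete coding sequence that begin near the start of Adk-201 are outside the pair. Among them Adk-210 had 8 and 4.96 TPM, Adk-202 5.98 and 4.29, Adk-206 2.99 and 0.48, and Adk-205 2.76 and 2.66. Counting them beside Adk-201 would lower the share of Adk-207 in both libraries.

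Among the 4 adenosine receptor genes, Adora2a alone was expressed. Its product raises cyclic AMP when adenosine binds, and it is the adenosine receptor best known in T cells. Adora2a (ENSMUSG00000020178.6, chromosome 10, 75316877 to 75334784, plus strand) had 388 and 270 estimated counts and 19.68 and 11.98 TPM, 15.83 ± 5.44 (SD, n = 2), above 53.8% of expressed genes. Library 1 was the higher, and this was the widest relative spread of the 9 expressed genes. Adora2b, which encodes a receptor of low affinity for adenosine (ENSMUSG00000018500.2, chromosome 11, 62248984 to 62266453, plus strand), had 0 counts in both libraries and in both annotations. Such a gene could still have given up to 3 counts, which would be 0.134 TPM in library 1 and 0.128 TPM in library 2. Against that limit in each library, Adora2a was at least 146-fold higher in library 1 and at least 93.5-fold higher in library 2. Adora1 had 0 and 0.19 TPM and Adora3 had 0.24 and 0.07 TPM.

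The complete coding transcript Adora2a-201 had 10.46 and 7.27 TPM and held 85.3% and 89.4% of the gene's counts. The 538-base transcript Adora2a-203, annotated with an incomplete coding sequence, had 8.20 TPM in library 1 and 3.07 TPM in library 2. Both transcripts were lower in library 2, the shorter by more. Adora2a-203 has only 40 windows of its own among 489. Its authors' intervals, 4.01 to 10.3 TPM in library 1 and 0.342 to 4.86 TPM in library 2, overlapped, so the size of its drop is poorly determined. The incomplete Adora2a-202 had no count in library 1 and 1.31 TPM from 6.55 counts in library 2.

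The ATP-gated channels P2rx7 and P2rx4 were the expressed members of their 7-gene family. P2X7 opens at high ATP, and P2X4 responds to lower ATP. P2rx7 (ENSMUSG00000029468.17, chromosome 5, 122643911 to 122691432, plus strand) had 1685 and 1498 estimated counts and 48.65 and 48.06 TPM, 48.36 ± 0.42 (SD, n = 2), above 78.9% of expressed genes. P2rx4 (ENSMUSG00000029470.15, chromosome 5, 122707544 to 122729738, plus strand) had 607 and 610 counts and 31.45 and 30.60 TPM, 31.03 ± 0.60 (SD, n = 2), above 70.0%. They lie on the same strand with 16111 bases between them. P2rx7 was 1.55 and 1.57 times P2rx4 per length. The ratio was 2.78 and 2.46 in CPM, and 2.01 and 1.73 in CPM from the GENCODE M4 counts. P2rx7 was thus above P2rx4 by each measure, while the size of the gap moved with the measure.

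The P2rx7 transcripts divided by their starting exon. The 4 complete coding transcripts that begin like P2rx7-203, the annotated principal form, summed to 25.09 and 22.89 TPM. Among them P2rx7-202, which ends after 4 exons with a coding sequence of 459 bases, had 5.96 and 8.69 TPM. P2rx7-208, which begins in an exon within the intron that follows, had 7.48 and 6.19 TPM, or 23.0% and 21.3% of the complete coding total. A mouse P2X7 form with an alternative starting exon, P2X7k, is known from T cells; whether P2rx7-208 is that form was not tested. The coding bases of each starting exon are in capitals, and the 15 shared bases that follow are in lower case.
P2rx7-203: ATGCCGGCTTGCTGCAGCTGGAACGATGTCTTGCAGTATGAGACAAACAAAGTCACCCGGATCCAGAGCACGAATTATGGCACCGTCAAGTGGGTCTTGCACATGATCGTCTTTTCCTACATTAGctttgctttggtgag
P2rx7-208: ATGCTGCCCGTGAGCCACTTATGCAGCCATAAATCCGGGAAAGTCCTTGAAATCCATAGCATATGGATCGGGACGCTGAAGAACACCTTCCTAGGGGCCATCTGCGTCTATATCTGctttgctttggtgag
The capitals lie on chromosome 5 at 122644074 to 122644198 for P2rx7-203 and at 122650424 to 122650539 for P2rx7-208 (mm10, plus strand). P2rx7-208 is annotated to end soon after its stop codon and has 115 windows of its own among 1799, so its share is a model estimate from few places. P2rx7-205, a single-exon transcript annotated as a retained intron, had 15.71 and 18.62 TPM, 32.3% and 38.8% of the gene. It lies at 122682182 to 122684284, within the untranslated end of the last exon of P2rx7-203, and all 2054 of its 50-base windows also occur in P2rx7-203. No read of that length can tell P2rx7-205 from P2rx7-203 by sequence alone. P2rx7-203 itself had 15.91 and 10.68 TPM, so it led in library 1 and P2rx7-205 led in library 2. The P2rx7 effective length that the authors' model used fell with this, from 2785.69 bases in library 1 to 2390.61 in library 2. Library 2 had 0.871 times the P2rx7 CPM of library 1 and 0.988 times its TPM.

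**Figure D2:**
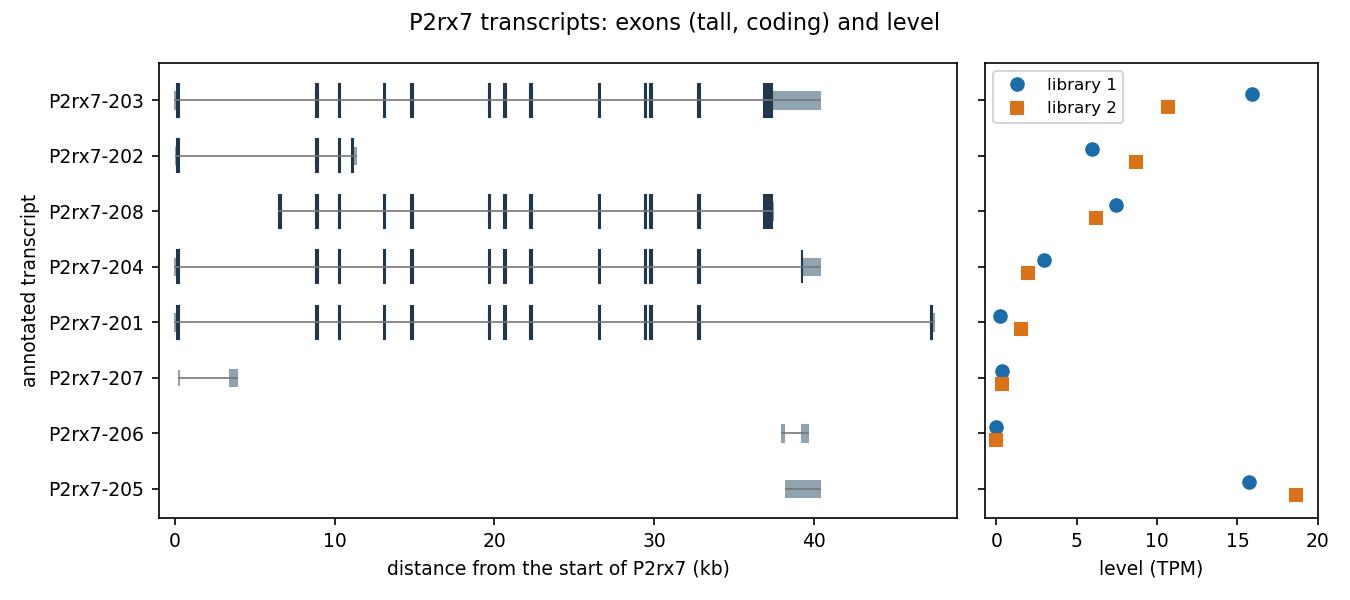
Left, exons of the 8 annotated P2rx7 transcripts by distance from the start of the gene in kb, with coding parts tall and dark; right, the level of each in TPM in library 1 (circles) and library 2 (squares). P2rx7-205 sits inside the long last exon of P2rx7-203, and these were the highest transcripts, with P2rx7-203 higher in library 1 (15.91 TPM) and P2rx7-205 higher in library 2 (18.62 TPM).

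In P2rx4 the authors' model gave most of the complete coding level to transcripts that skip a coding exon of 81 bases. Those without it (P2rx4-202 and P2rx4-204) summed to 14.61 and 12.11 TPM, and those with it (P2rx4-201 and P2rx4-206) to 2.10 and 5.06 TPM. Transcripts with the exon were thus 12.6% and 29.5% of the pair, and the principal transcript P2rx4-201 had 1.56 and 0.13 TPM. The exon is shown in capitals between 15 bases of each neighbouring exon, with the junction left by its absence after it.
P2rx4-201: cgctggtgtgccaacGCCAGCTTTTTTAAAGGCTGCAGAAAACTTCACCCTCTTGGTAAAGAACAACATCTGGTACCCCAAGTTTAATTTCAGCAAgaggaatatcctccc
P2rx4-202: cgctggtgtgccaacgaggaatatcctccc
The exon lies at 122724594 to 122724674 on chromosome 5 (mm10, plus strand). P2rx4-202 has no window of its own among 1838, although the junction above is absent from P2rx4-201. P2rx4-206 likewise has none among 1062. Of the forms with the exon, P2rx4-201 led in library 1 and P2rx4-206, with 0.54 and 4.93 TPM, led in library 2. The authors' intervals for P2rx4-201, 0.749 to 2.25 and 0.00675 to 0.519 TPM, did not overlap between libraries. The split is thus a model estimate and poorly determined. Outside the complete coding transcripts, the noncoding P2rx4-205 had 5.31 and 4.39 TPM, P2rx4-209, annotated for nonsense-mediated decay, had 3.63 and 2.25 TPM, and the retained intron P2rx4-208 had 2.75 and 3.55 TPM.

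Slc29a1 encodes ENT1, the main equilibrative transporter through which adenosine crosses the plasma membrane. The gene (ENSMUSG00000023942.15, chromosome 17, 45585200 to 45599606, minus strand) had 1478 and 1447 estimated counts and 69.09 and 65.44 TPM, 67.27 ± 2.58 (SD, n = 2), above 84.5% of expressed genes. It has 25 annotated transcripts, of which 7 had a count in both libraries. Complete coding transcripts of 1374 coding bases summed to 35.92 and 27.53 TPM and those of 1380 coding bases to 18.73 and 22.62 TPM, so the longer kind was 34.3% and 45.1% of the pair. The 6 coding bases that only the longer kind has are in capitals below, between 15 shared bases on each side.
Slc29a1-213: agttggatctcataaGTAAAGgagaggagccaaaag
Slc29a1-202: agttggatctcataagagaggagccaaaag
The exon that ends with the capitals in the longer kind lies at 45588996 to 45589074 on chromosome 17 (mm10, minus strand). The authors' interval for the leading transcript of the shorter kind, Slc29a1-202, was 14.3 to 31.5 TPM in library 1 and 5.34 to 25.7 in library 2, and for Slc29a1-213 it was 0.169 to 11.8 and 3.70 to 17.9. They overlapped in library 2 and not in library 1, and the TPM of 18.37 and 22.62 for Slc29a1-213 lay above both of its intervals, so the split is poorly determined. The antisense gene Gm17080 had 9.79 and 9.66 counts, few beside those of Slc29a1.

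Dpp4 encodes CD26, a surface peptidase that cuts dipeptides from chemokines and hormones and, in human, also holds adenosine deaminase at the cell surface. The gene (ENSMUSG00000035000.8, chromosome 2, 62330073 to 62412231, minus strand) had 2238 and 2220 estimated counts and 75.10 and 73.06 TPM, 74.08 ± 1.44 (SD, n = 2), above 86.1% of expressed genes. Its level per length rested mostly on short transcripts with no coding sequence. Dpp4-201, of 5268 bases and the one complete coding transcript, held 82.1% and 82.3% of the counts but 37.7% and 36.8% of the TPM, 28.31 and 26.85 TPM. Transcripts annotated as retained introns, Dpp4-203 and Dpp4-204 among them, took 50.3% and 49.3% of the TPM from 15.1% and 14.6% of the counts. The noncoding Dpp4-202 had 8.69 and 8.45 TPM. The antisense gene Gm13561 had 24.2 and 37.5 counts. By complete coding transcripts alone Dpp4 had rank 5 among the 10 genes, and by all transcripts it had rank 3.

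The same comparison for the other genes left the order otherwise as it was. By complete coding transcripts the means were 143.8 TPM for Nt5e, 63.1 for Adk, 52.4 for Slc29a1, 30.8 for P2rx7, 27.6 for Dpp4, 22.5 for Entpd1, 16.9 for P2rx4, 8.87 for Adora2a and 6.44 for Ada. The transcript with the highest mean TPM was a complete coding one for 8 of the 9 expressed genes, P2rx7 being the exception, and by counts it was for all 9.

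**Figure D3:**
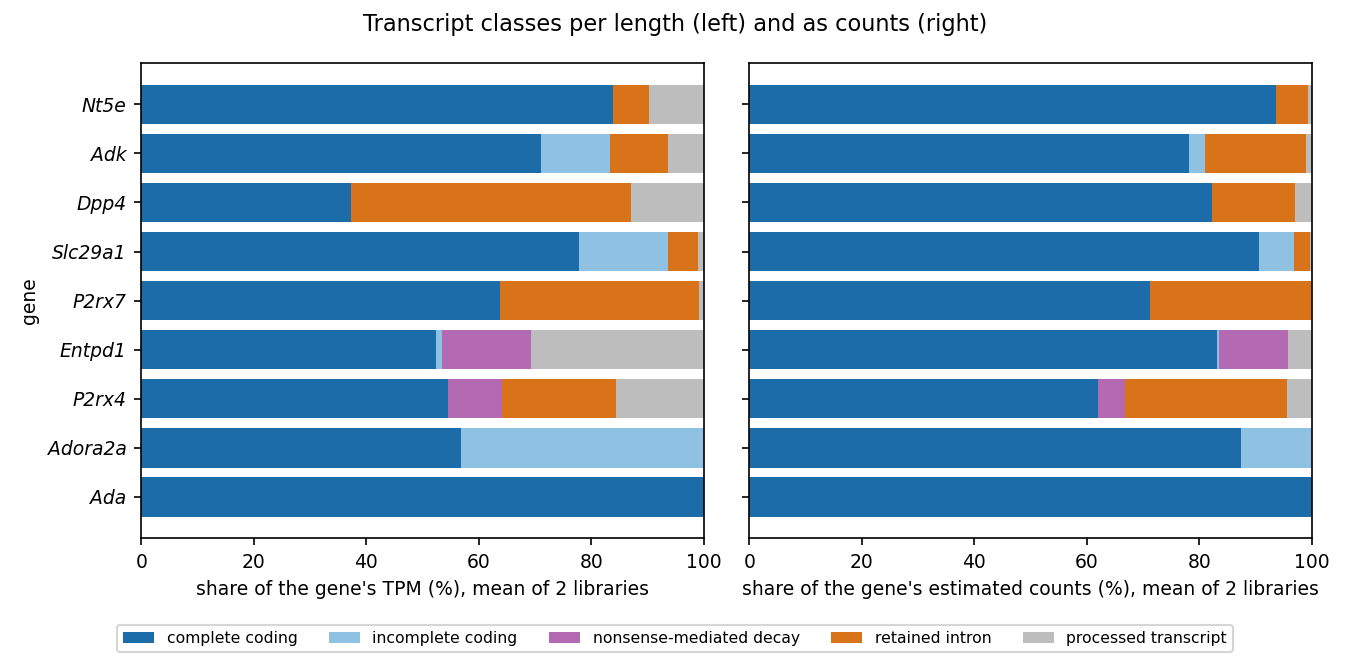
Share of each gene's TPM (left, per length) and of its estimated counts (right) given to the annotated transcript classes, in percent, mean of 2 libraries. Complete coding transcripts of Dpp4 held 37.2% of its TPM and 82.2% of its counts, and those of Ada held 100% of both.

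The technical libraries were then compared to see how far the levels can be trusted. An exact two-sided binomial test on the estimated counts of each gene, adjusted by the Benjamini-Hochberg method over the 17458 genes whose counts summed to at least 10, called 25.1% of them different between libraries, 13.4% being higher in library 1. Of the 9 members tested 2 were called, a share near that background, both of them higher in library 1. Adora2a had a log2 ratio of library 2 over library 1 of -0.55 (95% exact interval -0.78 to -0.33) with an adjusted p of 2.07e-05. P2rx7 had a log2 ratio of -0.20 (-0.30 to -0.10) with an adjusted p of 9.77e-04. Ada had the opposite sign at 0.22 (-0.14 to 0.57) and was not called (adjusted p 0.413), and the other 6 lay between -0.06 and 0.02. Between libraries the variation exceeded counting error, with a common coefficient of variation of 13.02%. An edgeR exact test that takes this variation as given called 2.1% of genes and no member. In that test the lowest unadjusted p of a member was 0.0584, for Adora2a, and P2rx7 had 0.466. The variation was estimated from the same 2 libraries that were compared, so the differences tested also count as noise. The lack of a called member there does not show that the levels were equal. In the GENCODE M4 counts, where 10.5% of genes were called by the binomial test, Adora2a had 211 and 137 counts, a log2 ratio of -0.61 and an adjusted p of 2.53e-03, while P2rx7 had 476 and 397 counts, a log2 ratio of -0.25 and an adjusted p of 0.0790. The B cell list summed to 35.1 and 35.3 TPM, nearly all of it Cd79b, and its low markers moved in both directions, with 30 and 3 counts for Ms4a1, 14.95 and 30 for Cd79a and 3 and 6 for Pax5; the part of such cells in the Adora2a difference was not tested.

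**Figure D4:**
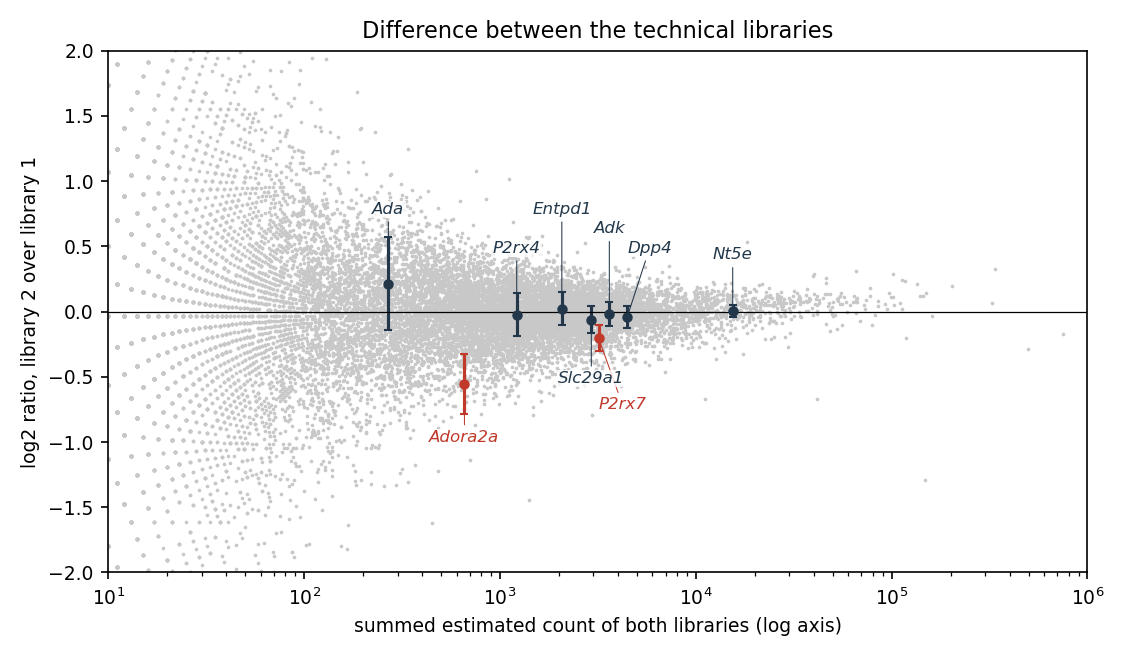
Log2 ratio of library 2 over library 1 against the summed estimated count (log axis) for the genes tested (grey), with the members in dark blue, or red where the exact binomial test called them, and their 95% exact intervals; 618 genes beyond 2 in either direction lie outside the plot. Adora2a at -0.55 and P2rx7 at -0.20 were called, and the intervals of the other 7 members include 0.

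Around the 10 genes, 10 lists of related genes hold 71 more, of which 37 were expressed. At the surface, the other ATP and AMP hydrolases were low: Enpp1, a pyrophosphatase that makes AMP from ATP, had 9.69 and 6.99 TPM, and Entpd2, Entpd3, Entpd8, Enpp3 and Alpl were not expressed. Entpd1 and Nt5e were thus the highest of their list by TPM. NAD is a further source of adenosine outside the cell. Cd38, an NAD hydrolase, had 28.2 and 28.4 TPM, and Art4 had 2.15 and 2.77 TPM.

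Of 16 genes listed by name as adenosine and AMP enzymes inside the cell or their relatives, 13 were expressed. A place in this list does not mean that the product acts on adenosine or AMP. Nt5c, a deoxyribonucleotidase of the cytosol, was the highest at 212.2 and 220.4 TPM, above Nt5c3b at 92.1 ± 2.53, Ahcyl2 at 70.8 ± 7.82, Nt5c3 at 46.8 ± 0.91 and Nt5c2 at 26.7 ± 2.23 TPM (each ± SD, n = 2). Pnp, the phosphorylase that follows adenosine deaminase by splitting inosine, had 41.9 and 46.7 TPM, above Ada in both libraries, with 22.0% of its 50-base windows found in other genes; its near copy Pnp2 had 0.93 and 0.85 TPM, and the division of reads between them is uncertain. The AMP deaminases had 15.9 ± 1.10 TPM for Ampd2, 4.55 ± 1.05 for Ampd1 and 2.60 ± 0.58 for Ampd3 (SD, n = 2). Ahcy, which makes adenosine from S-adenosylhomocysteine, had 20.8 and 17.6 TPM, with 68.7% of its 50-base windows shared with other genes, so its level is uncertain; Ahcyl1 had 16.9 ± 0.62 TPM (SD, n = 2).

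The nucleoside transporters were led by Slc28a2, a sodium-driven purine nucleoside carrier, at 120.6 and 114.0 TPM, with 35.4% shared windows, ahead of Slc29a1; Slc29a3 had 12.6 ± 0.40 and Slc29a2 1.65 ± 0.33 TPM (SD, n = 2). Of the P2Y list P2ry10, whose product despite its name is a receptor for lysophosphatidylserine, had 83.0 and 84.9 TPM, and P2ry14, a receptor for UDP-glucose, had 3.28 and 3.86 TPM. The nucleotide receptors P2ry1, P2ry2, P2ry4, P2ry6, P2ry12 and P2ry13 were not expressed, nor were P2rx1, P2rx2, P2rx3, P2rx5 and P2rx6. Routes by which ATP leaves the cell included Slc17a9, the vesicular nucleotide transporter, at 61.0 and 57.5 TPM, the channel gene Panx1 at 17.7 and 17.4 TPM, Calhm2 at 8.77 ± 1.22 TPM (SD, n = 2) and Lrrc8a at 29.5 and 27.5 TPM, the last with 66.2% shared windows.

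Downstream of the Adora2a receptor, 11 of 16 genes of the cyclic AMP arm were expressed. Prkar1a, a regulatory subunit of protein kinase A, had 343.3 and 309.0 TPM, Gnas, whose product couples the receptor to adenylyl cyclase, had 94.6 and 96.4 TPM with 18.6% shared windows, and the catalytic subunit gene Prkacb had 98.3 and 90.0 TPM. Adcy7 was the leading cyclase gene of the list at 61.3 and 59.0 TPM, against 3.84 and 2.81 TPM for Adcy3. Pde4b led the phosphodiesterase genes, which degrade cyclic AMP, at 51.4 ± 0.71 TPM, above Pde7a at 9.26 ± 1.82 and Pde4d at 5.92 ± 0.70 TPM (SD, n = 2). Creb1 had 45.3 ± 6.92, Crem 41.9 ± 9.38 and Prkaca 12.6 ± 1.68 TPM (SD, n = 2). In the DPP4 family, Dpp4 lay above the cytosolic peptidase genes Dpp8, with 17.5 and 14.8 TPM, and Dpp9, with 12.96 and 13.21 TPM, and Fap was not expressed. Over all 10 lists with the members included, 46 of 81 genes were expressed, 56.8%. Of the 59 tested between libraries 5 were called higher in library 2 and 11 higher in library 1, beside 25.1% called over all genes.

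**Figure D5:**
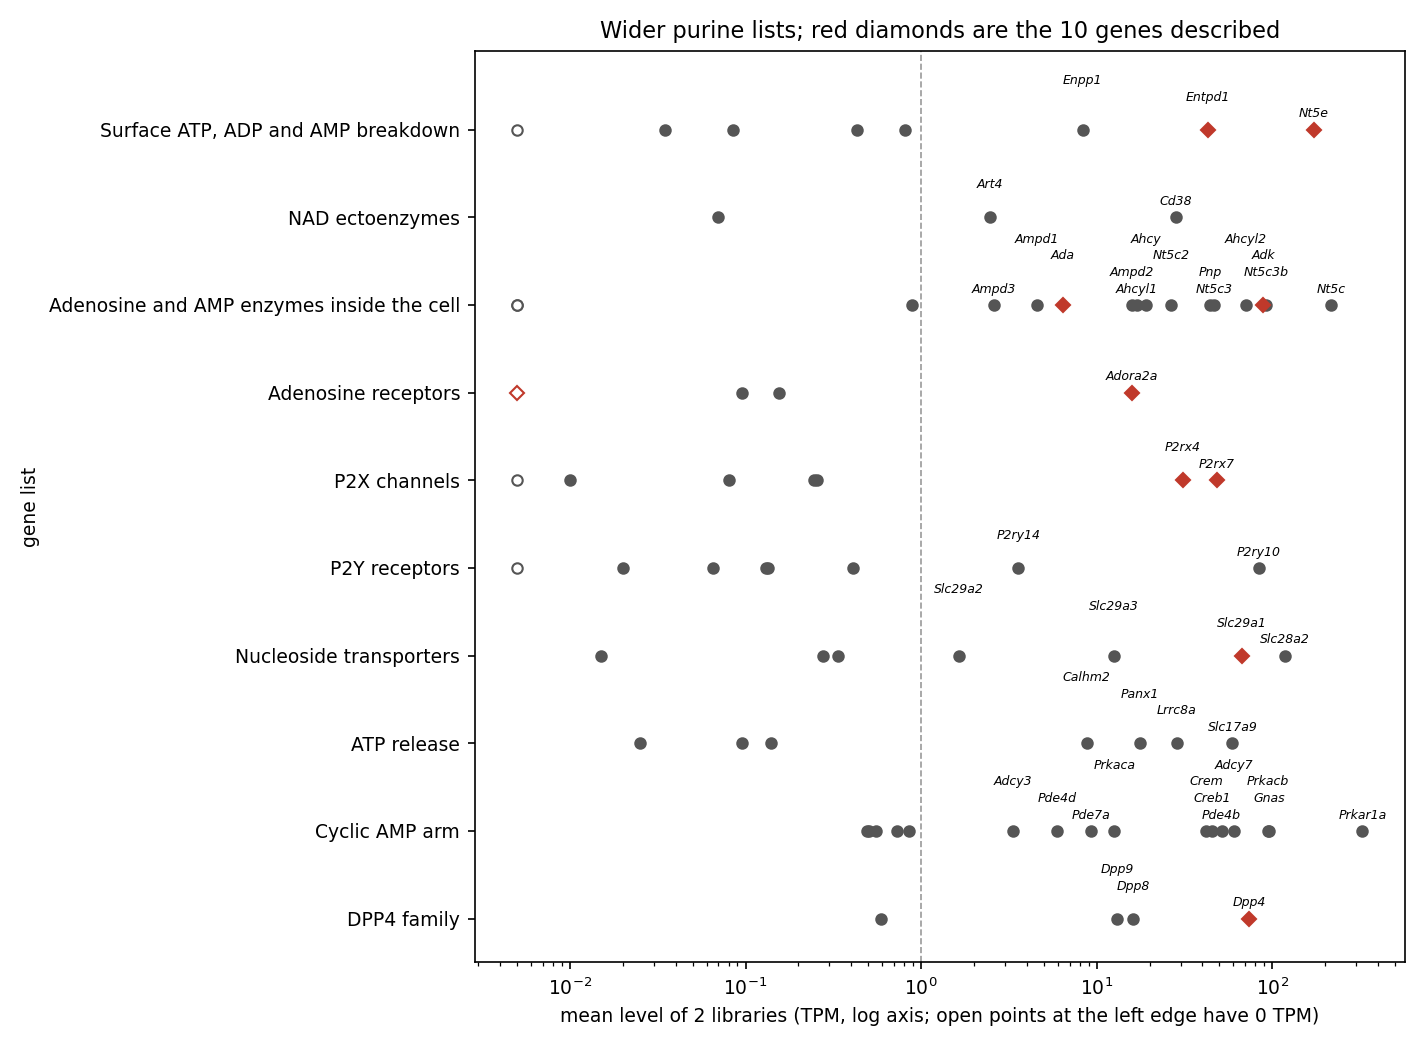
Mean level of 2 libraries in TPM (log axis) for 80 of the 81 genes of 10 lists, with the 10 genes described as red diamonds, the threshold of 1 TPM as a dashed line, names given from 1 TPM upward and genes at 0 TPM as open symbols at the left edge. Adora2a is the receptor gene of adenosine to the right of the line, and P2rx4 and P2rx7 are the P2X genes to its right.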

How the data were processed

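Gene and transcript tables of 2 technical libraries of 1 mouse were used, on mm10 with GENCODE M21, per the deposited readme texts; the sources used here name neither aligner nor versions. The estimated counts deposited by the authors (column expected_count, per the file headers) are unscaled. The authors' TPM is scaled for length and depth over all features, deposited as a maximum likelihood estimate, used here, and a posterior mean with credibility bounds whose level is not in the header. The percent of a gene's TPM per transcript is deposited too. Whole-number gene counts deposited without a header use GENCODE M4; the sources used here give no counter, strand setting or multimapping treatment. The totals of the M4 tables were 3746426 and 3680387 counts, and 22195 of 22457 identifiers matched M21. Features that are no annotated gene (26345, with 0.176% and 0.169% of counts) were left out.

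Here CPM, SD over libraries (technical), exact Poisson limits and shares of transcripts were computed, with pandas 2.3.3 and scipy 1.17.1. Windows of 50 bases, the read length implied by the effective lengths, were searched in either orientation across all M21 transcripts; members shared at most 3.93% with other genes. The strand setting is unknown, so reads of antisense genes cannot be told apart from the member's. The libraries were compared by an exact binomial test on rounded estimated counts with TMM sizes from edgeR 4.0.16 (R 4.3.3), adjusted at 0.05. Its p-values take counting error as the only error, compare technical libraries only and do not measure the spread between them. The test was tried on simulated data with counting error alone, which cannot show its error rate where the variation is larger. DESeq2 1.42.0 size factors, other filters, the M4 counts and an edgeR exact test were alternatives. PCR copies are not told apart from molecules. Complete coding means an annotated coding sequence with both ends. Transcripts with 10% or more in either library and those in the compared pairs are named, along with all members and list genes at 1 TPM or more; 1 listed gene matched no single annotated gene, and 1 list gene and 1 marker are not reported here by name. The members and lists were chosen with earlier results of these data known. Sequences came from the M21 transcripts.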

Additional observations from a re-analysis of the deposited data

How the results depend on the processing

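The count of expressed members stayed at 9 at 0.5 and at 5 TPM, under the posterior mean, under 1 CPM in the GENCODE M4 counts, and in each library alone. Members called different between libraries stayed at 2 with scaling by total count, with DESeq2 size factors and with a summed count of at least 1 or 50, and were 1 with the GENCODE M4 counts (Adora2a) and 0 with the edgeR exact test with the common dispersion. The leading transcript was complete coding for between 8 and 9 of the 9 expressed members in the single libraries. The number of genes called over all genes was 367 with the edgeR exact test and 1172 of 11114 with the M4 counts, against 4384; the cause of the lower M4 count was not tested. For the expressed members, CPM from the M4 counts was between 1.15 (Nt5e) and 3.19 (Ada) times that from the M21 counts. Among the T cell markers the factor was 2.80 for Foxp3 and 1.04 for Cd4, but 0.30 for Cd3e and 0.21 for Ikzf2, which had the most M21 counts of these markers. The factor thus differed between genes, and M4 ratios of a high gene to a low gene can come out smaller than M21 ratios. The cause was not tested. No paired analysis was possible because all libraries form a single group. With 1 animal, nothing here speaks to variation between mice, and a difference of the size seen for Ada was not detectable at 123 and 146 counts.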
